A study of Danio rerio with 6 samples.

Results

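The NF-kB subunits and their inhibitors were examined in sorted endocardium, the inner lining of the heart. The 10 genes were taken by symbol from the 17835 genes of the deposited table: the subunit genes nfkb1, rela, rel, nfkb2 and relb, the classical inhibitor genes nfkbiaa, nfkbiab and nfkbie, and the nuclear inhibitor-like genes nfkbiz and bcl3. All 10 were found, each on 1 row. The cells came from adult zebrafish of the enhancer trap line ET(krt4:EGFP)sqet33-1A, in which endocardial cells carry EGFP, and were sorted 96 hours post cryoinjury (hpci) of the ventricle. The genotypes were myd88+/+ and myd88-/-, taken as siblings, with 3 libraries of each, and a library was made from 4 pooled ventricles. In the text, wild-type and mutant pools are the libraries of these genotypes, by replicate. Both genotypes carried the reporter and were injured, and no uninjured samples were analysed here. The loss-of-function allele, hu3568, is present in every cell of the fish, so that an effect within the endocardium and an effect of other myd88-/- cells on it cannot be told apart.

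NF-kB is a family of dimeric transcription factors built from Rel proteins. Rela, Rel and Relb carry a domain that activates transcription, whereas the products of nfkb1 and nfkb2 are made as long precursors and cut to their DNA-binding part. IkB proteins, encoded by nfkbiaa, nfkbiab and nfkbie, hold the dimers in the cytoplasm until the IKK kinases mark them for degradation. MyD88, the adaptor of most Toll-like receptors and of the interleukin-1 receptor, is one of the proteins through which the IKK kinases are switched on. In mammals the gene for IkB-alpha is itself a target of NF-kB, which closes a negative feedback loop, and zebrafish have a pair of genes, nfkbiaa and nfkbiab, for this inhibitor.

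Normalized read counts summed to between 11136966 and 11847536 per library. The library of myd88-/- replicate 3 stood apart from the others: in 252 of the 16383 genes tested its value exceeded all 5 others by more than 2-fold, against 13 to 37 genes for any other, so values without it are given where they matter. The mutated gene, myd88, read 1305, 1149 and 1070 in wild-type pools against 817, 575 and 849 in mutant pools, with no overlap between genotypes (log2 fold change -0.67, adjusted p 0.15 in limma). In the check of the cell label, 24 endocardial and endothelial markers, among them cdh5, kdrl, tie1 and nfatc1, were all tested. They summed to 132200 to 150750 in myd88+/+ and 115906 to 171346 in myd88-/- libraries. The highest sum was that of myd88-/- replicate 3, where krt4 alone read 44876. Of the 24 markers 12 were lower and 12 higher in myd88-/- cells, and none passed the limits given below. An unadjusted limma p under 0.05 was reached by 4 lower and 6 higher markers, against 6.97% and 6.2% of all genes tested. The genotypes did not overlap for 3 lower and 6 higher markers, against 8.98% and 9.09% of all genes tested. Genes of epicardial cells and fibroblasts summed to more, 235868 to 298149 over all libraries, most of it from col1a1a, col1a2 and dcn. Others of this list differed widely. The epicardial marker tcf21 stayed between 19 and 111 and tbx18 between 104 and 374, while fn1b and pdgfra had means of 8871 and 956.5. For each of these genes myd88-/- replicate 3 read highest, at 17292 for fn1b and 1468 for pdgfra. It did not for col1a1a, col1a2 and dcn. The mean of aldh1a2, which the study used as an activation marker of both endocardial and epicardial cells, was 12790. In its single-cell data from an earlier time, the study described endocardial cells with high col1a1a and col1a2. There, these cells formed the largest endocardial cluster of myd88-/- ventricles. In the pools studied here the genotypes overlapped for col1a1a and col1a2, with log2 fold changes of -0.18 and -0.13. From which cells the collagen reads came was not tested. The gene dcn was not among those that the study named for its collagen-rich endocardial cells. Cardiomyocyte markers summed to 32465 to 48766. In such bulk samples, fewer cells of a type and less RNA per cell cannot be told apart.

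One of the 10 genes passed the study's limits for differential expression, a Benjamini-Hochberg adjusted p under 0.05 over all genes tested with a fold change over 1.5 (0.58 on the log2 scale). This was nfkbiab, which was lower in myd88-/- cells. Of all genes tested, 0.702% passed these limits, and 0.562% passed in the lower direction. An unadjusted limma p under 0.05 was reached by nfkbiab, nfkb2 and bcl3, 3 of 10, against 13.2% of all genes tested. The genotypes did not overlap for nfkbiab, nfkb2 and relb, again 3 of 10, against 18.1% of all genes tested. Of the 10 genes 6 were higher and 4 lower in myd88-/- cells, where 51.1% of all genes tested were higher, and their median log2 fold change was 0.18, where that of all genes tested was 0.01. Among the 8 genes with a mean count of at least 50, which leaves out nfkb1 and nfkbiz, 4 were higher and 4 lower, with a median of 0.02.

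**Figure D1:**
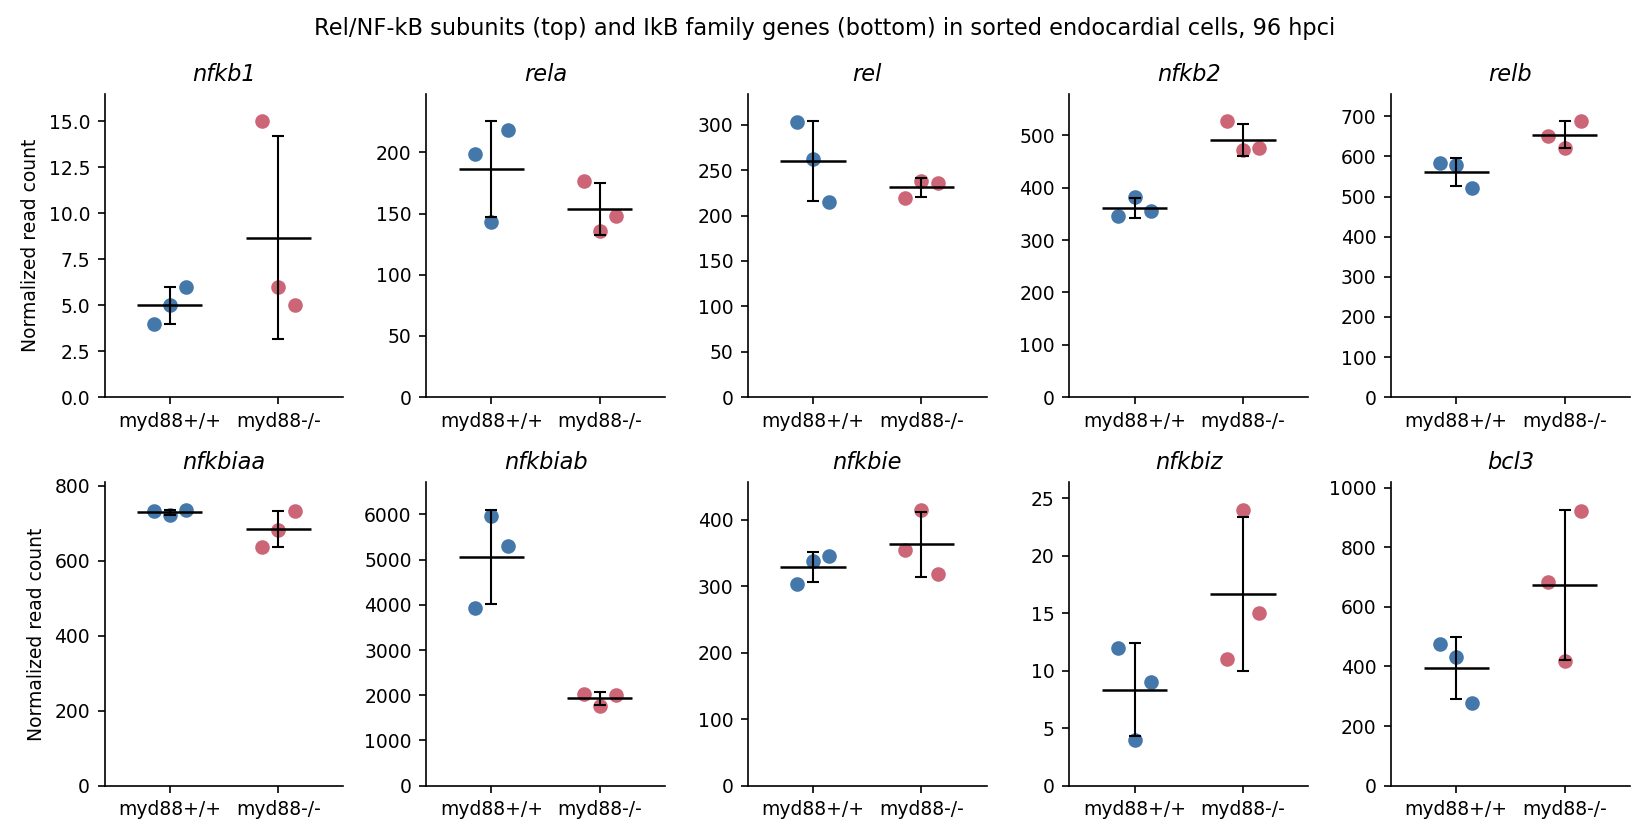
Normalized read counts (y axis, from 0) of the 10 genes in the 3 myd88+/+ (blue) and 3 myd88-/- (red) libraries, with each genotype's mean and SD in black. The 3 myd88-/- values of nfkbiab lie between 1772 and 2024, below the lowest myd88+/+ value of 3923, while those of nfkb2 and relb lie above all myd88+/+ values and the other 7 genes overlap.

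The subunits that carry an activation domain and are joined to the canonical pathway were examined first. For rela, the subunit of the classical NF-kB dimer (ENSDARG00000098696, danRer11 chromosome 7, 778297 to 804515), normalized counts were 199, 143 and 218 in wild-type pools against 177, 136 and 148 in mutant pools. The genotypes overlapped, and the lowest value of each lay in replicate 2. The log2 fold change was -0.27, and its 95% interval ran from -0.73 to 0.20 (limma, adjusted p 0.62). It moved to -0.45 when myd88+/+ replicate 2 was left out and to -0.14 when replicate 3 of that genotype was. The gene rel, which encodes c-Rel (ENSDARG00000055276, chromosome 13, 25795511 to 25819825), read 303, 262 and 215 in wild-type pools against 219, 238 and 236 in mutant pools. All 3 mutant values lay within the range of the wild-type values, and the spread was wider in wild-type cells, at a coefficient of variation of 16.9% against 4.52%. Its log2 fold change was -0.16 with an interval of -0.53 to 0.22 (limma, adjusted p 0.734). Leaving out the first wild-type pool brought it to -0.04, leaving out the last brought it to -0.29, and scaling to equal totals gave -0.10.

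The gene nfkb1, which encodes the DNA-binding partner of Rela (ENSDARG00000105261, chromosome 14, 49811926 to 49859823), was close to the lower limit of measurement. Its counts were 4, 5 and 6 in wild-type pools against 15, 6 and 5 in mutant pools. A single library, myd88-/- replicate 1, stood above the rest. At the mean of 6.83, counting error alone is about 38.3%, and the myd88+/+ mean of 5.0 did not itself exceed the limit of 5 that was set on the mean over all libraries. A log2 fold change of 0.56 was obtained, with an interval of -0.69 to 1.81. It was 0.13 when that library was left out and 0.28 with a pseudocount of 10, so no difference was detectable at this depth.

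The gene pair of the alternative pathway, nfkb2 and relb, had higher values in each mutant library than in any wild-type library, without passing the test. For nfkb2, whose precursor holds Relb in the cytoplasm until it is cut (ENSDARG00000038687, chromosome 13, 22717366 to 22735547), counts were 345, 383 and 356 in wild-type pools against 527, 472 and 476 in mutant pools. The lowest mutant value was 472, above the highest wild-type value of 383. Means were 361.3 ± 19.55 and 491.7 ± 30.66 (SD, n = 3), a difference of 36.1%. The log2 fold change, 0.44 ± 0.13 (SE), had a 95% interval of 0.16 to 0.73. In limma the p was 0.00684 before and 0.187 after adjustment, so nfkb2 did not pass the limits. Its log2 fold change stayed between 0.39 and 0.50 in every alternative that was tried.

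For relb, the activating subunit that pairs with the nfkb2 product (ENSDARG00000086173, chromosome 15, 17100412 to 17125217), counts were 584, 579 and 521 in wild-type pools against 652, 622 and 688 in mutant pools. Such a separation toward higher values was found for 9.09% of all genes tested. On the log2 scale the change was 0.22 ± 0.12 (SE), its interval ran from -0.05 to 0.50, and the adjusted p from limma was 0.479. The difference of 16.5% is above the coefficients of variation of 6.24% and 5.05% within genotypes, but it did not pass the test.

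Among the classical inhibitors, the pair of IkB-alpha genes differed from each other. For nfkbiab (ENSDARG00000007693, chromosome 17, plus strand, 12942021 to 12949754), counts were 3923, 5968 and 5296 in wild-type pools against 2024, 1772 and 2000 in mutant pools. The highest mutant library was well below the lowest wild-type library, and the mutant libraries were close to each other, with a coefficient of variation of 7.2% against 20.6% in wild-type cells. Counting error at this level is about 1.69%, well under either spread. The means were 5062 ± 1042 and 1932 ± 139 (SD, n = 3), and the log2 fold change of -1.37 ± 0.17 (SE) corresponds to a level 2.58-fold lower, with a 95% interval of -1.75 to -0.996 on the log2 scale. The adjusted p from limma was 0.0079, and the gene stood at rank 35 of 16383 by p. No gene of the table overlaps its span.

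The call of nfkbiab was lost in 3 of 14 alternatives, one of them a fit with the replicate number as a block, although its size changed little. Without the library of highest count, myd88+/+ replicate 2, limma gave a log2 fold change of -1.24 and an adjusted p of 0.0609. With 1 prior spread for all genes in place of a spread that follows intensity, the change was again -1.37 but the adjusted p from limma 0.095. Leaving out any of the other 5 libraries instead gave adjusted p-values in limma between 0.00732 and 0.0464, the lowest of them for myd88-/- replicate 3.

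**Figure D2:**
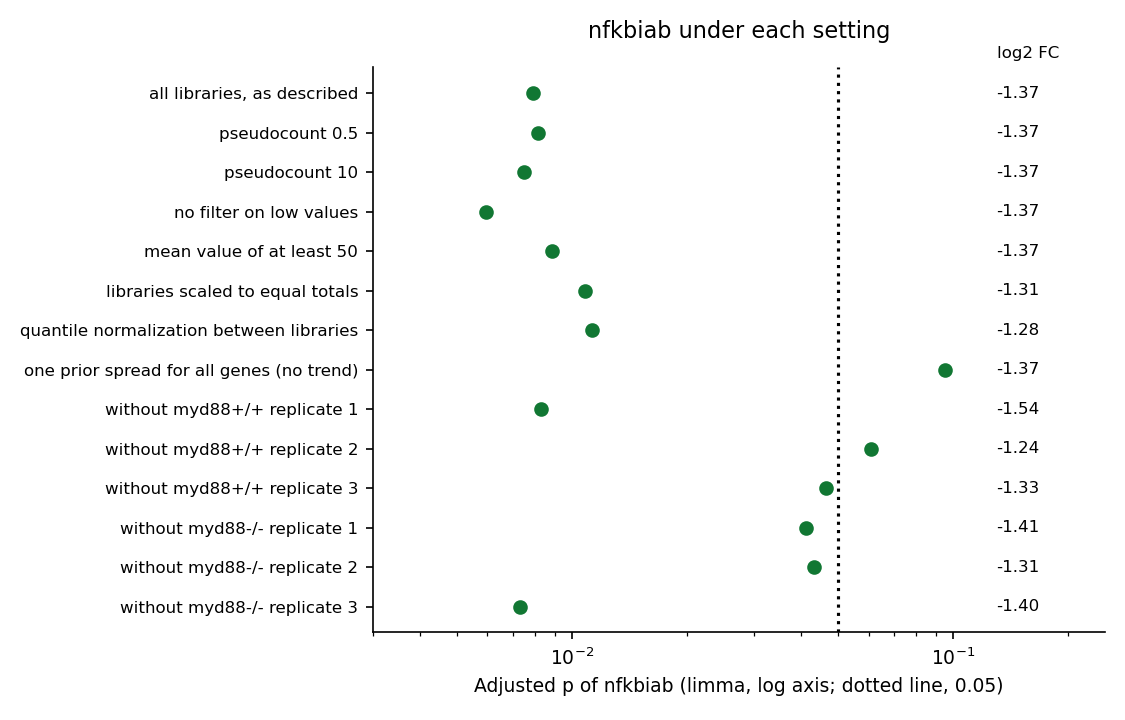
Adjusted p of nfkbiab from limma (x axis, log scale, dotted line at 0.05) for the fit described here and for other settings (rows), with the log2 fold change printed at the right of each row. The replicate block is not drawn. Over the settings drawn the log2 fold change lies between -1.54 and -1.24, and of these the adjusted p is above 0.05 without myd88+/+ replicate 2 and with 1 prior spread for all genes.

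For the other gene of the pair, nfkbiaa (ENSDARG00000005481, chromosome 20, plus strand, 16881883 to 16884737), counts were 732, 721 and 735 in wild-type pools against 638, 683 and 733 in mutant pools. The wild-type libraries agreed to a coefficient of variation of 1.01%, below the counting error of about 3.76%, and myd88-/- replicate 3 lay among them. Its log2 fold change was -0.09 ± 0.12 (SE, adjusted p 0.781 in limma), and the 95% interval, -0.36 to 0.17, does not meet that of nfkbiab. Other settings moved it to between -0.14, without myd88-/- replicate 3, and -0.03, with equal totals, and it was -0.04 without myd88-/- replicate 1. The span of nfkbiaa overlaps that of psma6b on the minus strand. Reads on several genes were not counted, but whether counting used strand is not given. How many reads of nfkbiaa were lost in this way is therefore not known.

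The difference between the genes of the pair was then taken within each library, where the scaling of the library plays almost no part. On the log2 scale nfkbiab was above nfkbiaa by 2.42, 3.05 and 2.85 in wild-type pools and by 1.66, 1.37 and 1.45 in mutant pools. These values did not overlap. The means differed by -1.28, with an exact two-sided permutation p of 0.1, the smallest that 3 against 3 libraries allow. As a share of the reads of the pair, nfkbiab held 84.3%, 89.2% and 87.8% in wild-type pools against 76.0%, 72.2% and 73.2% in mutant pools, a fall of 13.3 percentage points in the mean (exact two-sided permutation p 0.1). These are shares of reads and not of transcripts, since transcript lengths were not used. The reads of the pair together summed to 5792 ± 1038 in myd88+/+ and 2617 ± 144 in myd88-/- libraries (SD, n = 3).

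**Figure D3:**
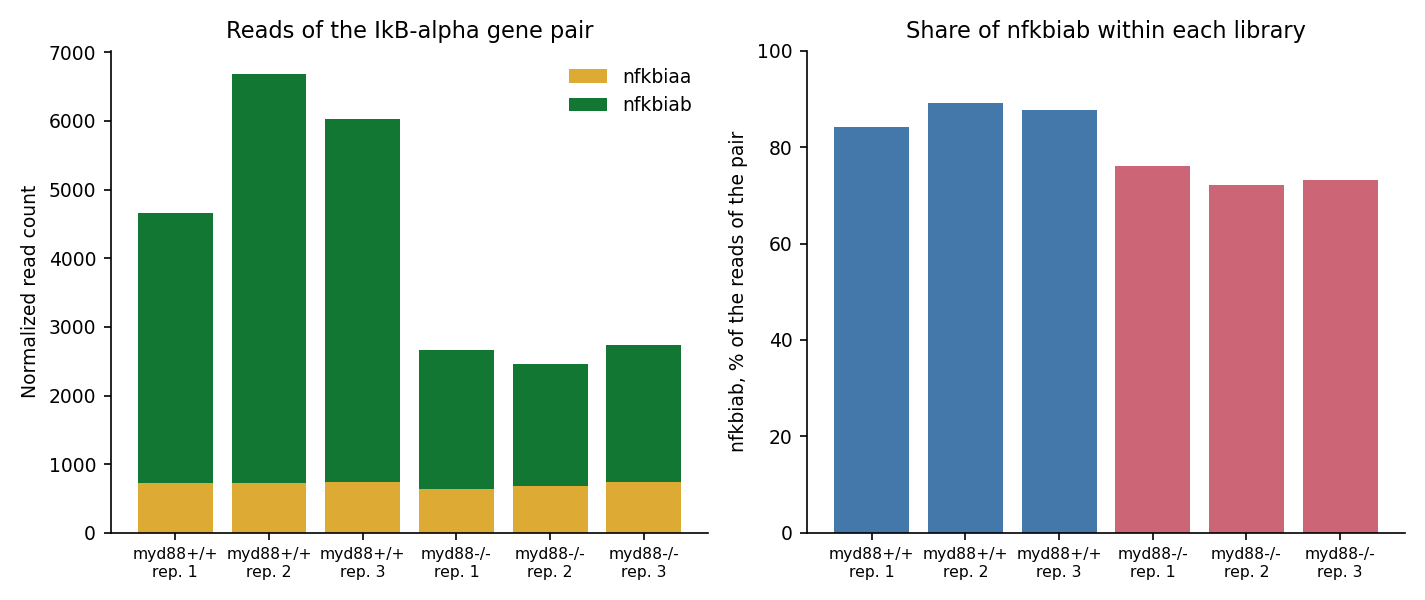
Left, normalized read counts (y axis, from 0) of nfkbiaa (yellow) and nfkbiab (green) stacked for each of the 6 libraries. Right, the percentage of these reads that came from nfkbiab, which lies between 84.3% and 89.2% in the 3 myd88+/+ libraries (blue) and between 72.2% and 76.0% in the 3 myd88-/- libraries (red), while the nfkbiaa part stays between 638 and 735.

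The third classical inhibitor gene, nfkbie, which encodes IkB-epsilon (ENSDARG00000068367, chromosome 20, 51274297 to 51307815), read 303, 338 and 346 in wild-type pools against 355, 415 and 318 in mutant pools. The genotypes overlapped. A log2 fold change of 0.13 resulted, with a 95% interval of -0.20 to 0.47 (limma, adjusted p 0.748). Leaving out myd88+/+ replicate 1 gave 0.08, and leaving out mutant replicates 2 and 3 in turn gave 0.03 and 0.22. For nfkbiaa and nfkbie, then, no difference beyond the spread between libraries was found.

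The nuclear members of the family act on NF-kB bound to DNA. For bcl3 (ENSDARG00000087832, chromosome 16, 25701985 to 25741225), counts were 475, 431 and 277 in wild-type pools against 683, 417 and 922 in mutant pools. The highest value was in myd88-/- replicate 3, and myd88-/- replicate 2 lay among the wild-type libraries. The resulting log2 fold change, 0.74 ± 0.30 (SE), had an interval of 0.06 to 1.41. Its p in limma was 0.035 unadjusted and 0.34 adjusted. Its size rested on single libraries: leaving out myd88-/- replicate 3 gave 0.47, and leaving out myd88-/- replicate 2 gave 1.04.

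The gene nfkbiz, which encodes IkB-zeta (ENSDARG00000102097, chromosome 1, 18716 to 23389), read low, at 12, 4 and 9 in wild-type pools against 11, 24 and 15 in mutant pools. The genotypes overlapped, and counting error at the mean of 12.5 is about 28.3%. Its interval on the log2 scale ran from -0.18 to 2.10 around a log2 fold change of 0.96, and the adjusted p from limma was 0.459. The change was smaller without myd88+/+ replicate 2, at 0.57, and with a pseudocount of 10, at 0.54.

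**Figure D4:**
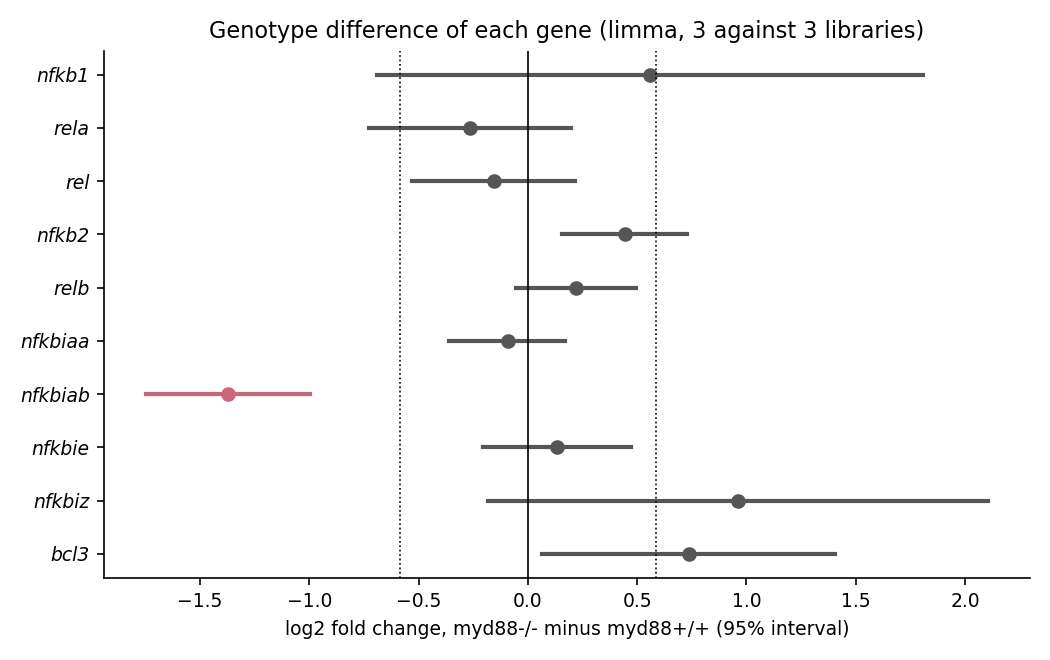
Log2 fold change of each gene, myd88-/- minus myd88+/+ (x axis), on the log2(value + 1) scale, with its 95% interval from limma; dotted lines mark a 1.5-fold change. The interval of nfkbiab (red, the gene that passed the limits) lies wholly beyond the line for lower values, those of nfkb2 and bcl3 lie above 0 but cross the line for higher values, and the other 7 intervals include 0.

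The genes were next set beside other genes of the pathway, in lists chosen with earlier results of these data known. In the list of IKK kinases and their activators, 10 of 11 genes were listed and tested. None passed the limits, and 1 had an unadjusted limma p under 0.05, against 13.2% of all genes tested. In 3 the genotypes did not overlap, all toward higher values, against 9.09%. Of the 10 genes 8 were higher and 2 lower, where 51.1% of all genes tested were higher, and the median log2 fold change was 0.24. It stayed between 0.17 and 0.31 in all 14 alternatives. The gene with the low unadjusted p was ikbkg, the regulatory subunit of the IKK complex, with counts of 725, 732 and 766 in wild-type pools against 1008, 878 and 843 in mutant pools. These did not overlap, but the log2 fold change of 0.29 failed the test (limma, adjusted p 0.353).

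Other inhibitors of the pathway gave a like picture in 22 tested entries, which stood for 21 symbols because otulina has 2 identifiers that overlap each other. Of these 17 were higher and 5 lower, where 51.1% of all genes tested were higher. The median of the entries was 0.18 and ranged from 0.12 to 0.25 over the alternatives. None passed the limits. In 7 the genotypes did not overlap, all toward higher values, against 9.09% of all genes tested. An unadjusted limma p under 0.05 was reached by 3 genes, all higher in the mutant, against 6.2% of all genes tested in that direction.

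These were rnf11a, cylda and nfkbib. For rnf11a, whose mammalian product works in a ubiquitin-editing complex that ends NF-kB signalling, counts were 323, 357 and 415 in wild-type pools against 628, 584 and 648 in mutant pools. Its log2 fold change of 0.77 ± 0.14 (SE) had an adjusted p of 0.0501 in limma, just short of the limit. It passed in 5 of 14 alternatives, over which the adjusted p ran from 0.0428 to 0.251. For cylda, a gene for a deubiquitinase that removes the chains needed for IKK activation, counts were 185, 192 and 205 in wild-type pools against 275, 275 and 256 in mutant pools. Its log2 fold change of 0.47 did not pass (limma, adjusted p 0.201). For nfkbib, which encodes IkB-beta, a further classical inhibitor, counts were 529, 619 and 606 in wild-type pools against 746, 761 and 652 in mutant pools. Here the value was 0.30 on the log2 scale (limma, adjusted p 0.37), of opposite sign to that of nfkbiab.

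Genes known as targets of NF-kB, mostly from mammals, leaned the other way. None of the 10 members was put in this list, although the mammalian IkB-alpha gene is itself such a target. The lean therefore depends in part on how genes were assigned to lists. Of 34 named, 25 were listed and 23 tested. Of these 16 were lower and 7 higher in myd88-/- cells, where 51.1% of all genes tested were higher. None of the 23 passed the limits. Their median log2 fold change was -0.28, and it ranged from -0.41 to -0.19 over the alternatives. In 5 the genotypes did not overlap, all toward lower values, against 8.98% of all genes tested. The listed genes ccl34b.1 and nos2b were too low to be tested. Of these, ccl34b.1 was higher without overlap, at 0, 0 and 3 in wild-type pools against 8, 6 and 8 in mutant pools, and nos2b overlapped. An unadjusted limma p under 0.05 was reached by 4 lower genes, where 6.97% of all genes tested did so. It was reached by 1 higher gene, where 6.2% of all genes tested did so.

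Of the lower genes, vcam1b encodes an adhesion molecule that binds leukocytes to the vessel wall in mammals, and its counts were 8897, 12771 and 14958 in wild-type pools against 7215, 5244 and 7261 in mutant pools. On the log2 scale the difference was -0.88 ± 0.22 (SE), with an adjusted p of 0.139 in limma. The inflammatory cytokine gene il1b read 21, 18 and 13 in wild-type pools against 4, 6 and 6 in mutant pools (log2 fold change -1.53, adjusted p 0.177 in limma). These counts are low, and the change was -0.83 with a pseudocount of 10, but the genotypes did not overlap. The stress response gene gadd45bb read 7278, 8615 and 9087 against 6669, 5709 and 6593 (log2 fold change -0.39, adjusted p 0.273 in limma). For cd83, a gene of activated antigen-presenting cells, counts were 113, 90 and 54 against 39, 56 and 56, which overlapped, and the log2 fold change of -0.71 did not pass the test (limma, adjusted p 0.368). For the higher gene, tnfaip2b, counts were 48, 16 and 6 in wild-type pools against 165, 36 and 188 in mutant pools, and these overlapped (log2 fold change 2.55, adjusted p 0.208 in limma).

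**Figure D5:**
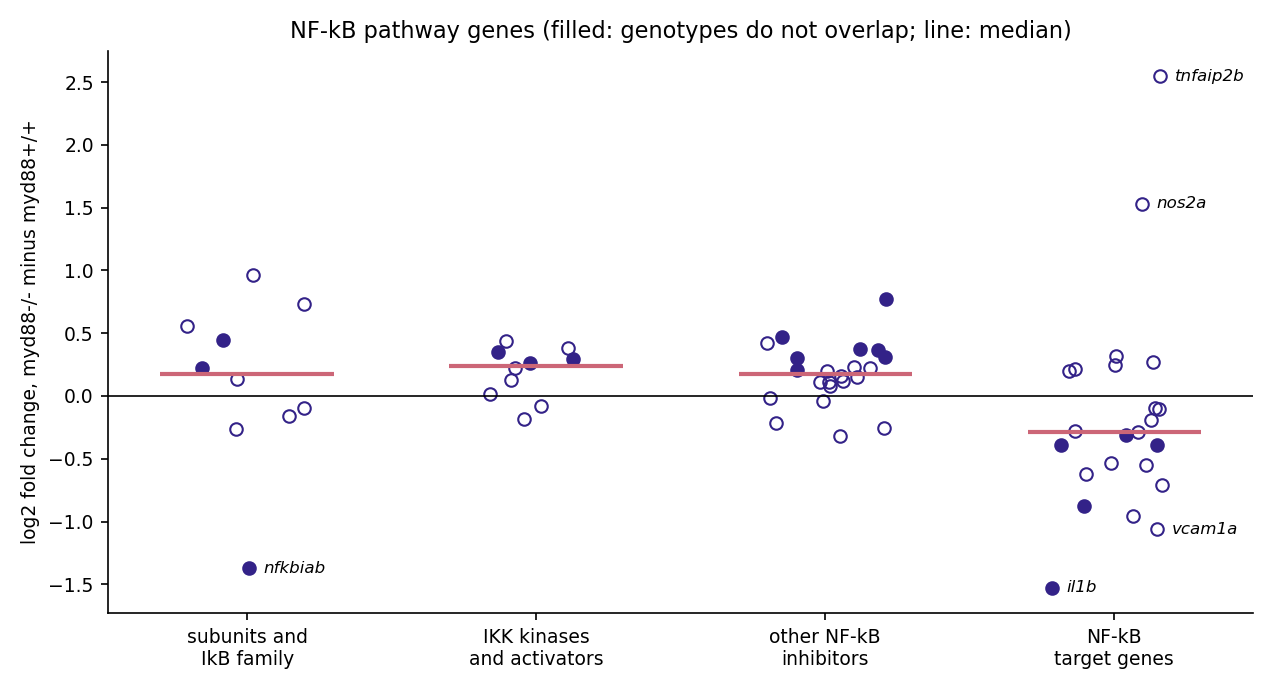
Log2 fold change, myd88-/- minus myd88+/+ (y axis), of the 10 genes described here and of the tested genes of 3 pathway lists, with the median of each as a red line and filled points where the genotypes do not overlap. The medians lie at 0.18, 0.24, 0.18 and -0.28 from left to right, and among these points nfkbiab alone passed the limits.

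A further list of genes was set beside nfkbiab. The gene for IkB-alpha is also known as a target of the glucocorticoid receptor in mammals. A list of such targets was chosen with earlier results of these data known, so its counts are descriptions and not independent evidence. Of its 15 tested genes 14 were lower and 1 higher in myd88-/- cells, where 51.1% of all genes tested were higher. The median log2 fold change was -0.94, and it was -1.49 without myd88-/- replicate 3 and between -0.98 and -0.68 without any other library. The summed counts of this list were 69658 to 102500 in myd88+/+ and 42046 to 47961 in myd88-/- libraries. The gene fkbp5 alone had means of 25180 and 4306. For sgk1 and dusp1 the genotypes overlapped, with log2 fold changes of -0.07 and -0.21. Of the 15 genes, 5 passed the limits, all lower, against 0.562% of all genes tested. These were fkbp5, ddit4, zbtb16a, klf9 and per1a, named here after their values were seen. Between 3 and 8 passed over the alternatives, 8 of them without myd88-/- replicate 3 and 3 without any one of myd88+/+ replicates 1, 2 and 3 or myd88-/- replicate 1. The part of glucocorticoid signalling in the fall of nfkbiab was not tested.

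Immune cells carry high NF-kB activity, so markers of macrophages, again a list chosen with earlier results of these data known, were set beside the result. Of 22 tested, 19 were lower and 3 higher in myd88-/- cells, where 51.1% of all genes tested were higher. None of the 22 passed the limits. The higher ones were csf1ra, ptprc and lgmn, with log2 fold changes of 0.98, 0.15 and 0.00. Those of spi1a, spi1b and coro1a were -0.08, -0.07 and -0.03. An unadjusted limma p under 0.05 was reached by 5, all lower, against 6.97% of all genes tested in that direction: marco, mfap4, cd74a, c1qa and ctss2.2, named after their values were seen. In marco and ctss2.2 the genotypes did not overlap, 2 of 22 against 8.98%. The median log2 fold change was -0.33, and it rested on single libraries: leaving out wild-type replicates 2 and 3 in turn gave -0.16 and -0.71, and leaving out mutant replicates 1 and 3 in turn gave -0.21 and -0.62. Their summed counts were 14490 to 18309 in myd88+/+ and 13245 to 15093 in myd88-/- libraries, which overlapped, but lgmn alone, with a mean of 8160 and a log2 fold change of 0.00, made up much of the sum. Counts of marco were 475, 1008 and 376 in wild-type pools against 138, 95 and 303 in mutant pools. By library the sums were 16099, 18309 and 14490 in wild-type pools and 13245, 14228 and 15093 in mutant pools. A relation of these sums to the nfkbiab counts was not tested. Of the 15 neutrophil markers named, 7 were listed and 5 tested, with a median of -0.19. Summed counts of those listed were 15098 to 21402 against 15071 to 16840, nearly all from srgn. Of these 5, ncf1, named after its values were seen, read 69, 104 and 46 against 22, 16 and 36, with no overlap (log2 fold change -1.53, adjusted p 0.15 in limma). The neutrophil genes mpx and lyz were not listed under these symbols and so were not analysed here. The part of these cells in the values of nfkbiab, rel or relb was not tested.

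Among 10393 named genes with a mean count of at least 50, the genes with the pattern most like that of nfkbiab over the 6 libraries were ciarta, mylipb, lonrf1, zc3h10 and abcc1, with Pearson correlations of 0.985 to 0.988 on the log2 scale. These are descriptions over 6 libraries that share the division into genotypes. A like order of the libraries within a genotype also comes in part from choosing the genes by this correlation. The counts of ciarta, a circadian repressor of transcription, were 1767, 2071 and 2001 in wild-type pools against 917, 803 and 834 in mutant pools. Those of mylipb, related to a mammalian ubiquitin ligase for the LDL receptor, were 576, 934 and 810 against 165, 162 and 234. Both passed the limits, with limma adjusted p-values of 0.00322 and 0.00404, and in both, as in nfkbiab, myd88+/+ replicate 1 was the lowest of the wild-type libraries and replicate 2 the highest. By contrast, lonrf1, zc3h10 and abcc1 did not pass, with adjusted p-values in limma of 0.0501, 0.407 and 0.217.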

How the data were processed

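RNA of EGFP+ cells was sequenced from 6 pools of 4 ventricles. Per the study's methods and the submitters' processing notes, reads were trimmed with Trimmomatic 0.39, aligned with STAR 2.7.10a to danRer11, cleared with Picard 3.0.0 of duplicate, multimapping, ribosomal and mitochondrial reads, counted over exons with featureCounts 2.0.4 and normalized with DESeq2 1.36.0. Reads on several genes were not counted. Whether counting used strand is not given in the sources used here. The deposited values are a score: read counts per gene, scaled by the authors with DESeq2 size factors and rounded to whole numbers, so that count models were not used. Counting errors are 100 over the square root of the mean value, which treats values as counts and covers counting error alone.

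limma 3.58.1 in R 4.3.3 was fitted to log2(value + 1) with genotype as the only term and an intensity trend, over the 16383 genes with a mean above 5, which included all 10 members. Fold changes on this scale understate those of low genes. The fit was checked on simulated data that had the same dispersion for every gene and no outlying library. That check does not bear on the call of any single gene here. Differences within the nfkbiaa and nfkbiab pair were tested by exact two-sided permutation of the genotype labels. Lists are described by counts and medians. Members, lists and tests were chosen with earlier results of these data known. Named genes were the 10 members, myd88, list genes of the pathway with an unadjusted p under 0.05, and the 5 genes most correlated with nfkbiab. Genes of the glucocorticoid and cell type lists were named outside this rule, in part after their values were seen. Nothing states whether pools of a genotype came from separate clutches or days, so p-values measure the spread between these pools. Pseudocount, filter, scaling, prior spread, a replicate block and leaving out each library were varied.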

Additional observations from a re-analysis of the deposited data

How the results depend on the processing

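The log2 fold changes of all 10 members kept their sign in every alternative in which they were tested; nfkb1 and nfkbiz could not be tested with a mean of at least 50. For nfkbiab, values ran from -1.54 to -1.24 with 1 library left out, and the limma adjusted p from 0.00595 to 0.095 over all alternatives. The call was lost without myd88+/+ replicate 2 (-1.24, adjusted p 0.0609), with 1 prior spread for all genes (-1.37, 0.095) and with the replicate number as a block (-1.37, 0.0508), and the number of members past the limits was then 0 in place of 1; with 1 library left out it was 0 to 1. Over all genes, 115 passed, 25 with 1 prior spread, 45 with the replicate block, and between 28 and 255 with 1 library left out, the extremes arising when myd88+/+ replicate 2 and myd88-/- replicate 3 respectively were dropped. Deviations of same-numbered libraries from their genotype means correlated at -0.12, 0.13 and -0.14, so the numbers were not taken as pairs. The difference within the nfkbiaa and nfkbiab pair ran from -1.45 to -1.14 on the log2 scale and from -14.7 to -12.3 percentage points with 1 library left out, and taken between same-numbered libraries it was -1.28 and -13.3 with a sign-flip exact p of 0.25, the smallest possible. For pathway genes other than the members, and for myd88, the alternatives were applied after seeing the data; of these rnf11a alone changed its call, passing with adjusted p-values of 0.0428 to 0.0489 in 5 alternatives. Scaling to equal totals moved the median log2 fold change of all genes from 0.01 to 0.07. Depth limits nfkb1 and nfkbiz, where counting error is about 38.3% and 28.3%.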

Other observations

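Sums over the members, formed after the values were seen and given without a test, show how much of the family's reads nfkbiab held. It gave 57.0%, 67.6% and 66.4% of the reads of the 10 genes in myd88+/+ and 38.2%, 37.0% and 36.1% in myd88-/- libraries. The other 9 genes together summed to 2957, 2866 and 2683 in wild-type pools against 3277, 3013 and 3541 in mutant pools. Without nfkbiab every mutant library was thus above every wild-type library, by a narrow margin of 3013 against 2957. None of these 9 genes passed the limits. Of the 3541 reads in myd88-/- replicate 3, bcl3 gave 922. Of single genes tested, 9.09% separated toward higher values. The reads of nfkbiaa, nfkbiab and nfkbie per read of the 5 subunit genes were 3.46, 5.12 and 4.85 in wild-type pools against 1.90, 1.95 and 1.97 in mutant pools. Without nfkbiab, the reads of nfkbiaa and nfkbie summed to 1035 to 1081 in myd88+/+ and 993 to 1098 in myd88-/- libraries, which overlapped. Both this sum and the ratio leave out nfkbib, a further classical inhibitor that is not among the 10 genes. It read 529, 619 and 606 in wild-type pools against 746, 761 and 652 in mutant pools, with no overlap.

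Within the subunits, nfkb2 and relb, the genes of the alternative pathway, held 64.7%, 70.1% and 66.6% of the subunit reads in myd88+/+ and 74.2%, 74.2% and 75.0% in myd88-/- libraries. The mutant values were closer to each other than the wild-type values, with an SD of 0.443 against 2.73 percentage points (n = 3). These are shares of reads, which depend on transcript length, and were compared between libraries only.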
